A study of Mus musculus with 4 samples.

Results

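The chains described here are the rearranged T cell receptor beta chains (TRB) of mouse thymocytes, sorted by the diversity (D) segment called in them: TRBD1, TRBD2 or no D segment. A chain was a V segment, a J segment and a nucleotide CDR3 (the junction that encodes the antigen-contacting loop, with its flanking codons), taken from productive full-length TRB contigs and counted once per library. These made 4825 chains, 3993 from turnover and 832 from autonomy, out of 23855 contigs in the V(D)J tables. Wild-type thymi had been transplanted and were taken at day 28 in both conditions. Thymocytes labelled as DN3-DN4, ISP (immature single positive) and double positive were sorted, and droplet libraries of single cells were made for the 5′ ends of transcripts and for rearranged receptor chains, V(D)J. In turnover, thymocytes are continuously replaced by progenitors that arrive from outside, and in autonomy the thymus keeps producing T cells from its own cells. The genotype, age and number of hosts were not given in the labels. Each condition had 1 V(D)J library and 1 gene expression library, which gives no measure of how animals vary and allows no test of the conditions. Intervals in parentheses are exact 95% binomial (Clopper-Pearson) intervals over chains. They cover counting error only and treat chains as independent, which the shared junctions described further on show is not so for all autonomy chains.

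The beta chain gene is assembled in immature thymocytes in an ordered way: a D segment is joined to a J segment, and a V segment is then joined to the DJ unit. The enzyme encoded by Dntt adds letters at both joints, and nucleases remove some, so that the joints differ from cell to cell. A cell with a productive chain signals through the pre-TCR, divides, and passes the same chain to its daughters. The locus carries a pair of D-J-C cassettes in tandem. TRBD1 lies 5′ of both J clusters and can be joined to either, whereas TRBD2 lies 3′ of the TRBJ1 cluster, so that the usual joining by deletion leads from TRBD2 to TRBJ2. In the RefSeq annotation of GRCm38.p6, the build also called mm10, Trbd1 is a D segment of 12 bases at chr6:41533201-41533212. The TRBJ1 cluster follows, from the start of Trbj1-1 at 41533864 to the end of Trbj1-7 at 41535687, and Trbc1 lies at chr6:41538219-41539665. Trbd2, of 14 bases, lies at chr6:41542163-41542176, 3′ of Trbc1. The TRBJ2 cluster runs from 41542754 to 41543856 and is followed by Trbc2 at chr6:41546730-41548181. All 32 V and J segments used by the chains were found in that table.

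The chain seen in most cells is shown for each D call and J cluster, first of turnover and then of autonomy, so that the letters behind the calls can be seen. Each CDR3 is written 5′ to 3′ as deposited. Capitals mark the letters that match neither the usual V start nor the usual J end, both learned from turnover chains, and therefore hold the D letters and the added letters.
turnover TRBV13-2, TRBD1, TRBJ1-1 (5 cells): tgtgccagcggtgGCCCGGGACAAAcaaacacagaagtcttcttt
turnover TRBV13-1, TRBD1, TRBJ2-7 (3 cells): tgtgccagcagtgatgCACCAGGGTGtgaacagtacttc
turnover TRBV1, TRBD2, TRBJ1-6 (2 cells): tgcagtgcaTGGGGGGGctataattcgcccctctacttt
turnover TRBV14, TRBD2, TRBJ2-7 (8 cells): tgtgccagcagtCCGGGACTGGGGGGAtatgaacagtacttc
turnover TRBV13-2, no D, TRBJ1-1 (3 cells): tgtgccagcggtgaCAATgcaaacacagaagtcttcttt
turnover TRBV13-1, no D, TRBJ2-5 (3 cells): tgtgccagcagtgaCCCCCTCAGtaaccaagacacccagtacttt
autonomy TRBV13-1, TRBD1, TRBJ1-5 (47 cells): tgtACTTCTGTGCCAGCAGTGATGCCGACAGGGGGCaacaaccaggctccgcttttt
autonomy TRBV29, TRBD1, TRBJ2-5 (186 cells): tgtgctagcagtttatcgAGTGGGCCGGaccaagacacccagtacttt
autonomy TRBV2, TRBD2, TRBJ1-6 (3 cells): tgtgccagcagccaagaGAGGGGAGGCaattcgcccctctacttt
autonomy TRBV13-2, TRBD2, TRBJ2-4 (192 cells): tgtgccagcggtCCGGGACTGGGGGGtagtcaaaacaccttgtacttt
autonomy TRBV12-2, no D, TRBJ1-3 (16 cells): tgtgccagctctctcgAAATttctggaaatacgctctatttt
autonomy TRBV12-2, no D, TRBJ2-7 (51 cells): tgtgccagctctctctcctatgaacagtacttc
The TRBD2 chains with a TRBJ2 segment carried a long run of G, the TRBD1 chains a shorter one, and the chains with no D call had 0 to 9 capitals and no run of G. The called CDR3 of the autonomy TRBV13-1 chain began 8 letters upstream of the usual V start, so its capitals also include V letters.

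The turnover V(D)J table held 12034 contigs with 177475 UMIs (unique molecules) and that of autonomy 11821 contigs with 105865 UMIs. The best contig of a chain had a median of 18 UMIs in turnover and 17 in autonomy. The turnover chains came from 3812 cells and the autonomy chains from 3240 cells. No chain had contigs with different D calls, and 1 chain was found in both libraries. The libraries shared 27 cell barcodes, 21 of them among cells with a member chain, and 31 barcodes were shared by the gene expression tables. No member contig was called with TRBC1, not even those with a TRBJ1 segment, so the constant region calls hold no information on the cassette. In the gene tables, Cd3e was detected in 96.9% of turnover and 96.5% of autonomy barcodes and Cd8a in 92.5% and 95.2%. The B cell gene Ms4a1 and the erythroid gene Hbb-bs were at 0 UMIs in both, and the macrophage gene C1qa stood at 1.54 and 25.1 CPM (UMIs scaled to a common library total). Other thymocyte genes differed more between the libraries. Il2ra, listed as a DN3 gene, was detected in 5.65% of turnover and 22.9% of autonomy barcodes, and Ptcra stood at 108 and 378 CPM. Kit, also listed as a DN3 gene, was rare and went the other way, at 0.777% and 0.262% of barcodes. Whether the stages of the cells contributed to the differences between the libraries was not tested.

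The D call differed between the libraries. Of turnover chains, 1957 were called TRBD1 (49.0%, 47.4 to 50.6), 1257 TRBD2 (31.5%, 30.0 to 32.9) and 779 had no D call (19.5%, 18.3 to 20.8). Of autonomy chains, 253 were called TRBD1 (30.4%, 27.3 to 33.7), 409 TRBD2 (49.2%, 45.7 to 52.6) and 170 had no D call (20.4%, 17.7 to 23.3). TRBD1 was thus the most frequent call in turnover and TRBD2 in autonomy, with intervals that did not overlap, while the share without a call was nearly the same.

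The J segments followed the gene order in both libraries. TRBD2 chains almost always had a TRBJ2 segment, and TRBD1 chains had both. In turnover, 1060 of 1957 TRBD1 chains had a TRBJ1 segment (54.2%, 51.9 to 56.4), against 87 of 1257 TRBD2 chains (6.92%, 5.58 to 8.47). Chains without a D call were near TRBD1, with 399 of 779 (51.2%, 47.6 to 54.8). In autonomy, TRBJ1 was less frequent for every D call, in 76 of 253 TRBD1 chains (30.0%, 24.5 to 36.1), 10 of 409 TRBD2 chains (2.44%, 1.18 to 4.45) and 29 of 170 chains with no D call (17.1%, 11.7 to 23.6). Over all D calls, TRBJ1 was used by 38.7% of turnover chains and 13.8% of autonomy chains.

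**Figure D1:**
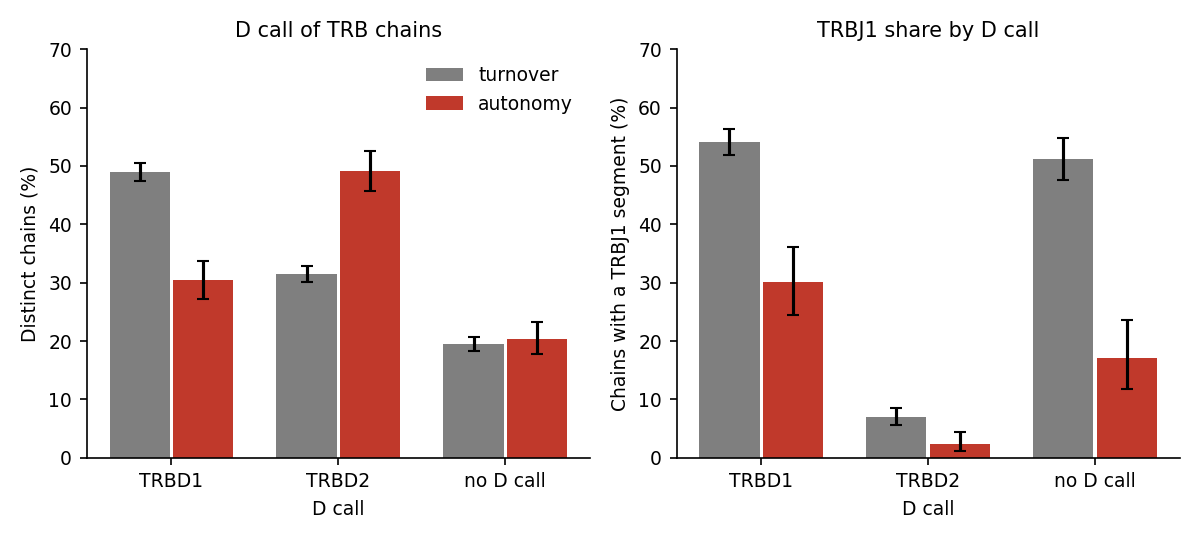
The left panel plots the share of distinct chains (%) with each D call and the right panel the share (%) of those chains that have a TRBJ1 segment, with grey bars for turnover and red bars for autonomy and error bars for exact 95% binomial intervals. TRBD1 leads in turnover at 49.0% and TRBD2 in autonomy at 49.2%, and the TRBJ1 share is lower in autonomy for each D call.

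TRBD2 was also more frequent in autonomy among chains with a TRBJ2 segment. Among D-called TRBJ2 chains, 1170 of 2067 were TRBD2 in turnover (56.6%, 54.4 to 58.8) and 399 of 576 in autonomy (69.3%, 65.3 to 73.0). Without TRBV13-3, whose autonomy chains are described further on, these shares were 57.3% (55.1 to 59.5) and 63.8% (59.3 to 68.2), with intervals that overlapped slightly. Among D-called TRBJ1 chains TRBD2 was rare in both, at 87 of 1147 (7.59%, 6.12 to 9.27) and 10 of 86 (11.6%, 5.72 to 20.3), and the intervals overlapped.

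Within a J cluster of turnover, TRBD1 and TRBD2 chains used the single J segments in nearly the same proportions. TRBJ1-1 was the most used TRBJ1 segment, in 28.0% of TRBD1 (25.3 to 30.8) and 31.0% of TRBD2 chains with TRBJ1 (21.5 to 41.9). TRBJ1-2 followed with 17.5% and 18.4%, TRBJ1-3 with 14.9% and 18.4%, and TRBJ1-5 with 9.43% and 9.20%. TRBJ1-4 was in 22.4% of TRBD1 (19.9 to 24.99) and 13.8% of TRBD2 chains (7.34 to 22.9), and TRBJ1-6 in 7.83% and 9.20%. In the TRBJ2 cluster, TRBJ2-7 was in 21.4% of TRBD1 (18.8 to 24.2) and 22.8% of TRBD2 chains (20.4 to 25.3), and TRBJ2-5 in 21.96% and 21.8%. TRBJ2-1 took 19.4% and 16.2%, TRBJ2-2 10.7% and 8.29%, TRBJ2-3 14.2% and 15.3%, and TRBJ2-4 12.4% and 15.6%. The intervals of the D calls overlapped for each of these 12 segments. Chains with no D call differed most at TRBJ2-1, which made 9.74% of those with a TRBJ2 segment (6.95 to 13.2).

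The autonomy chains used the J segments less evenly. TRBJ1-4 made 38 of the 76 TRBD1 chains with TRBJ1 (50.0%, 38.3 to 61.7). TRBJ2-5 made 66 of the 177 TRBD1 chains with TRBJ2 (37.3%, 30.1 to 44.9), against 25.3% of TRBD2 chains (21.1 to 29.9). These 66 chains were not all independent, since 12, 6 and 4 of them shared the letters before TRBJ2-5 (such groups are described further on). TRBJ2-7 made 56 of the 141 chains with TRBJ2 and no D call (39.7%, 31.6 to 48.3), against 23.7% of TRBD1 and 23.8% of TRBD2 chains. TRBJ2-1 was lower among TRBD1 chains than in turnover, at 7.91% (4.39 to 12.9). TRBJ2-2, TRBJ2-3 and TRBJ2-4 made 6.21%, 13.6% and 11.3% of TRBD1 chains with TRBJ2, and 7.02%, 12.5% and 18.05% of TRBD2 chains. The other TRBJ1 segments were in 4 to 21 autonomy chains each over all D calls, too few to set D calls side by side.

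**Figure D2:**
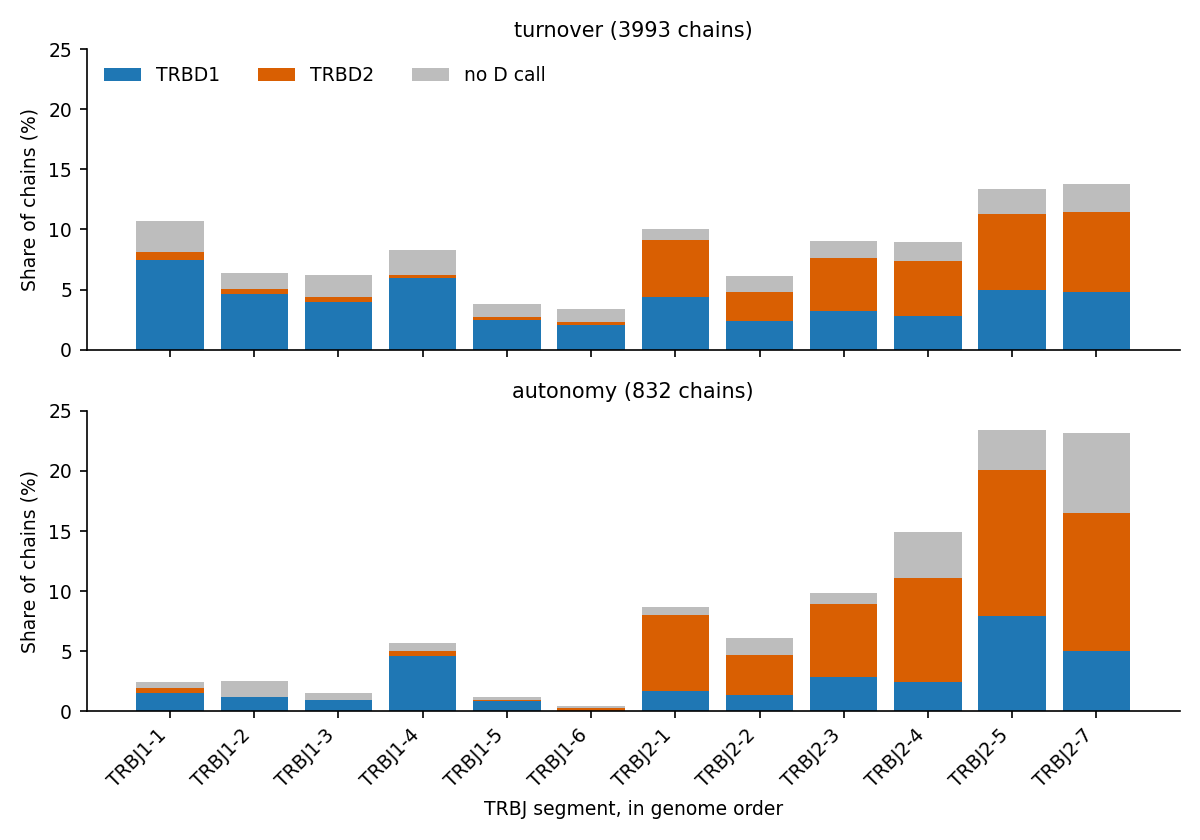
The bars give the share (%) of all distinct chains of a library that use each TRBJ segment, in genome order, stacked by D call (blue TRBD1, orange TRBD2, grey no D call), with turnover above and autonomy below. TRBD2 is nearly confined to the TRBJ2 segments in both libraries, and TRBJ1-4 stands above the other TRBJ1 segments in autonomy with 47 of 115 TRBJ1 chains.

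The letters behind the D calls were described with words of 6 letters, chosen as the ones that differed most in share between TRBD1 and TRBD2 chains, and counted on the strand of the chain between the first 9 and the last 12 letters of the CDR3. Since the D call was made from these letters, the shares describe the call and test nothing. ACAGGG was in 898 of 2210 TRBD1 chains (40.6%), 1 of 1666 TRBD2 chains and 6 of 949 chains with no D call. CTGGGG was in 1096 TRBD2 chains (65.8%), 24 TRBD1 chains (1.09%) and 1 chain with no D call. Over all 4825 chains, ACAGGG was in 18.8% and CTGGGG in 23.2%.

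The few TRBD2 chains with a TRBJ1 segment did not carry the same letters as other TRBD2 chains. CTGGGG was in 5 of these 97 chains (5.15%, 1.69 to 11.6), against 1091 of 1569 TRBD2 chains with TRBJ2 (69.5%, 67.2 to 71.8). In turnover, a run of at least 6 G was in 39 of 87 TRBD2 chains with TRBJ1 (44.8%, 34.1 to 55.9), in 55.6% of TRBD2 chains with TRBJ2 (52.7 to 58.4) and in 4.91% of TRBD1 chains with TRBJ1 (3.69 to 6.38). Their junctions held 9.79 ± 2.64 letters between the V and J stretches (mean ± SD over chains, n = 86), against 13.0 ± 3.57 for TRBD2 with TRBJ2 (n = 1149) and 11.2 ± 3.28 for TRBD1 with TRBJ1 (n = 1052). Runs of at least 4 G were in 78.2% of the turnover TRBD2 chains with TRBJ1 and in 50.5% of TRBD1 chains with TRBJ1. Whether a TRBD2 segment was joined in these chains was not tested.

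The CDR3 was longest with TRBD2 and shortest without a D call. In turnover, its median was 42 nucleotides for TRBD1 (quartiles 39 and 45), 45 for TRBD2 (42 and 48) and 39 with no D call (36 and 42). In autonomy, the medians were 42, 45 and 36 nucleotides, and with each cell counted 48, 48 and 39. The means of turnover were 43.0 ± 4.12, 44.6 ± 4.42 and 39.4 ± 4.52 nucleotides (mean ± SD over chains), and those of autonomy 43.5 ± 5.50, 45.1 ± 5.06 and 36.7 ± 5.42. The distributions overlapped widely, since the SD was larger than the 3 nucleotides between the TRBD1 and TRBD2 medians. The longest chain, of 78 nucleotides, was a TRBD1 chain of autonomy.

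The D calls differed mainly in the letters between the V and J stretches. In turnover, the letters between them numbered 11.1 for TRBD1, 12.8 for TRBD2 and 6.24 with no D call on average, while the V stretch kept 13.2, 13.4 and 13.6 letters and the J stretch 18.6, 18.4 and 19.5. In autonomy, the letters between were 12.8, 13.9 and 5.21. Whether the calling of D segments depends on this length was not tested. The share of chains with no D call fell with CDR3 length, from 263 of 506 turnover chains of up to 36 nucleotides (52.0%, 47.5 to 56.4) to 38 of 799 of 48 or more (4.76%, 3.39 to 6.47). In autonomy it was 101 of 154 (65.6%, 57.5 to 73.0) and 6 of 227 (2.64%, 0.976 to 5.66). The TRBD2 share ran the other way, from 12.6% to 50.9% of turnover chains and from 15.6% to 69.2% of autonomy chains.

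The longer CDR3 of TRBD2 was seen within single J segments of the TRBJ2 cluster. In turnover, the mean of TRBJ2-1 chains was 43.0 nucleotides with TRBD1 and 45.5 with TRBD2, that of TRBJ2-5 chains 42.4 and 44.3, and that of TRBJ2-7 chains 40.2 and 42.2. Among TRBJ2 segments, TRBJ2-7 with no D call was the shortest, at 36.5 in turnover and 33.9 in autonomy. In TRBJ1 of turnover the mean was 43.3 nucleotides with TRBD1 and 43.0 with TRBD2. Single TRBJ1 segments went both ways, as in TRBJ1-4 (44.4 and 42.5) and TRBJ1-5 (43.2 and 46.5, with 8 TRBD2 chains). In both clusters, each of these TRBD1 and TRBD2 means differed by less than the SD over chains.

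**Figure D3:**
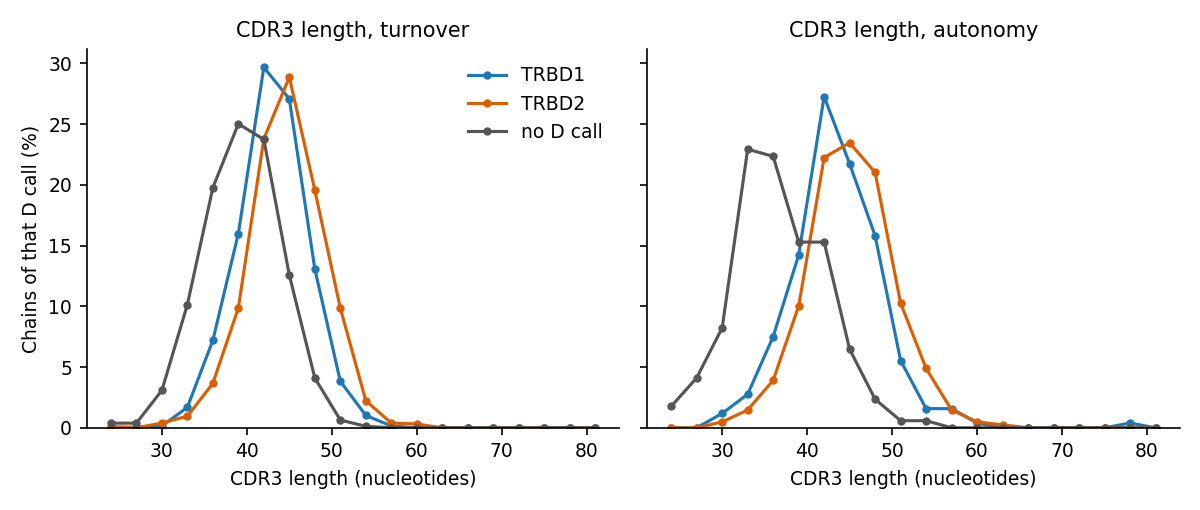
The lines give the share (%) of the chains of a D call at each CDR3 length in nucleotides, for turnover on the left and autonomy on the right. The TRBD2 line peaks at 45 nucleotides in both, the TRBD1 line at 42, and the line of chains with no D call lies at shorter lengths, further to the left in autonomy.

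In turnover, the D letters were read in all 3 frames. ACAGGG began at codon positions 1, 2 and 3 in 281, 269 and 245 TRBD1 chains, and CTGGGG in 268, 279 and 250 TRBD2 chains. In autonomy, ACAGGG was at these positions in 21, 50 and 32 TRBD1 chains and CTGGGG in 141, 78 and 80 TRBD2 chains. The surplus of CTGGGG at position 1 was carried by the TRBV13-3 chains described below, of which 78 had the word there and 0 elsewhere. The letters that define that group place the word at position 1. The other autonomy TRBD2 chains had 63, 79 and 80.

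The V segments of turnover differed in how often they had TRBD2. Over the 20 V segments with at least 10 D-called chains, the TRBD2 share ran from 23.1% in TRBV29 to 47.6% in TRBV2, with a median of 39.4%. TRBV1, the most 5′ V segment (chr6:40891296-40891885), had TRBD2 in 80 of 182 D-called chains (44.0%, 36.6 to 51.5). TRBV31, which lies 3′ of Trbc2 (chr6:41557693-41558371), had it in 49 of 124 (39.5%, 30.9 to 48.7). The V segments with most chains were TRBV13-2 (39.1%, 33.9 to 44.5), TRBV5 (46.2%, 40.1 to 52.4), TRBV3 (41.8%, 35.4 to 48.4), TRBV19 (31.5%, 25.4 to 38.1), TRBV13-1 (42.3%, 35.5 to 49.3) and TRBV13-3 (31.3%, 23.6 to 39.9). The intervals of TRBV19 and TRBV13-3 lay below that of TRBV5, though TRBV19 also had TRBJ1 in 45.5% of its chains against 30.7% of TRBV5 chains. Within TRBJ2, TRBV19 had TRBD2 in 50.0% of D-called chains (41.0 to 59.0), TRBV13-3 in 40.7% (30.2 to 51.8) and TRBV5 in 62.4% (55.1 to 69.4).

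In autonomy, the TRBD2 share was higher for 16 of the 19 V segments with at least 10 D-called chains in each library, and lower for TRBV12-1, TRBV20 and TRBV29. The median over V segments was 57.1%, against 39.4% in turnover. Within TRBJ2 the TRBD2 share was higher in autonomy for 14 of the 19, and the medians lay closer, at 57.1% in turnover and 60.7% in autonomy. The named V segments stood at 45.8% (TRBV13-1), 51.0% (TRBV19), 56.7% (TRBV1), 59.5% (TRBV3), 60.3% (TRBV13-2), 65.4% (TRBV5) and 70.7% (TRBV31). With each cell counted, the direction turned for TRBV13-1 (33.7% against 41.9% in turnover) and TRBV19 (26.4% against 31.8%), and TRBV3 rose to 93.8%. TRBV13-3 had the highest share, with TRBD2 in 97 of 106 D-called chains (91.5%, 84.5 to 96.0), against 42 of 134 in turnover. With each junction group (described below) counted once its share was 60.0%, equal to the median over V segments under that count. The autonomy interval lay above the turnover interval for TRBV13-2, TRBV13-3, TRBV16 and TRBV31, and within TRBJ2 for TRBV13-3 and TRBV16. The TRBJ1 share was lower in autonomy for all 19.

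**Figure D4:**
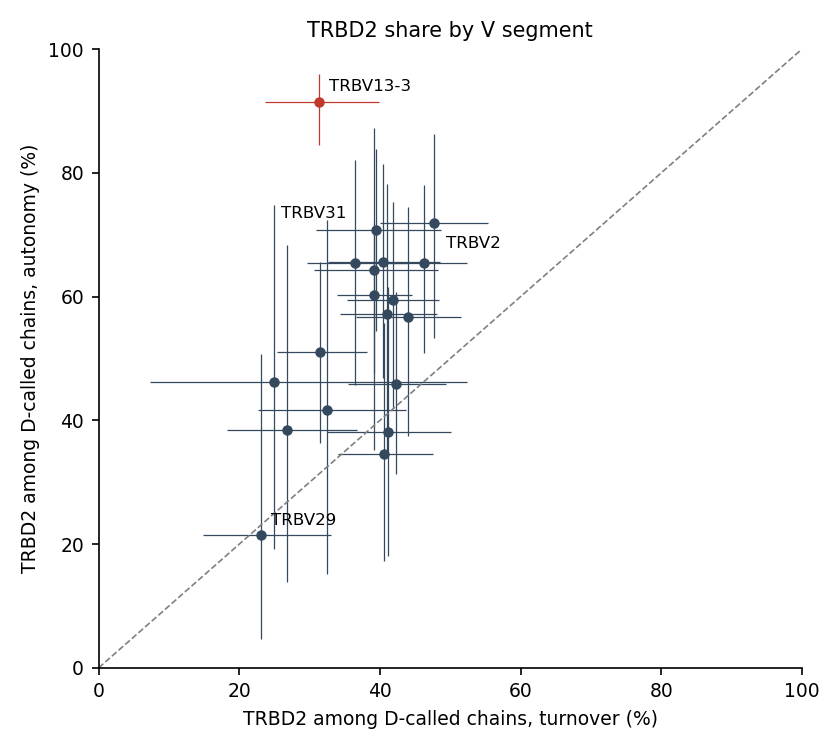
Each point is a V segment with at least 10 D-called chains in each library, with the TRBD2 share (%) of turnover on the horizontal axis and that of autonomy on the vertical axis, bars for exact 95% binomial intervals and a dashed line where the shares are equal. Most points lie above the line, and TRBV13-3, in red, lies farthest from it at 31.3% and 91.5%.

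The TRBV13-3 chains of autonomy largely shared the same 8 letters after the V letters, on many J joints. Of the 118 chains, 80 began with the V letters of TRBV13-3 followed by AAACTGGG, all 80 were called TRBD2, and the chains went on to all 6 TRBJ2 segments in use. No turnover contig with a CDR3 held these letters. The last 6 of the 8 letters, ACTGGG, were in 54.5% of the TRBD2 chains of both libraries. Whether the 80 chains came from 1 V-D joining event was not tested. For each J segment the chain in most cells is shown, with the 8 shared letters in capitals, because the joint differs only 3′ of them.
TRBV13-3, TRBD2, TRBJ2-1 (7 cells): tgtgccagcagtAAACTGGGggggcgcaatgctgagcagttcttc
TRBV13-3, TRBD2, TRBJ2-2 (3 cells): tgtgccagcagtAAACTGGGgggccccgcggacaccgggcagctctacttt
TRBV13-3, TRBD2, TRBJ2-3 (5 cells): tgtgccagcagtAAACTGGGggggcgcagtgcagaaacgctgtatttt
TRBV13-3, TRBD2, TRBJ2-4 (12 cells): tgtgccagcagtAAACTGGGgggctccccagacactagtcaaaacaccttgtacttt
TRBV13-3, TRBD2, TRBJ2-5 (5 cells): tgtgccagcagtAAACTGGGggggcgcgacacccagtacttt
TRBV13-3, TRBD2, TRBJ2-7 (5 cells): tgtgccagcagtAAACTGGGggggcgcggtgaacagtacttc
The group held 16 chains with TRBJ2-1, 6 with TRBJ2-2, 6 with TRBJ2-3, 19 with TRBJ2-4, 21 with TRBJ2-5 and 12 with TRBJ2-7. Its CDR3 ran from 33 to 57 nucleotides. The chains were spread over 149 cells, 53 chains were seen in 1 cell only, and the most frequent chain was in 12 cells. The best contig had at least 5 UMIs in 76 of the 80 chains. The V-D letters were constant by the choice of the group, while the J segment, the D-J joint and the length varied.

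To set this beside other junctions, chains were grouped by the V segment with the next 8 letters, or by the J segment with the 8 letters before it, and the number of different partner segments in a group was counted. These groupings were chosen after the TRBV13-3 chains had been seen, and 3112 turnover and 627 autonomy chains had enough letters to enter. Among V-D groups, the largest of turnover held 6 chains with 6 J segments, against the 80 chains with 6 J segments in autonomy. Groups with at least 3 J segments held 4.18% of turnover and 14.2% of autonomy chains. In turnover these were 130 chains in 35 groups. In autonomy they were 89 chains in 3 groups, of which the TRBV13-3 group held 80 and the next groups 6 and 3. The higher autonomy share thus came from that single group. Among D-J groups, the largest of turnover held 5 chains with 5 V segments, and in autonomy 5 groups had 6 to 13 V segments. With 6 letters in place of 8, the largest D-J group held 13 chains in turnover and 22 in autonomy, with at most 11 and 13 V segments, so this contrast depended on the number of letters. Groups with at least 3 V segments held 8.07% of turnover and 19.1% of autonomy chains, although the autonomy library had fewer chains in which to find a match.

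**Figure D5:**
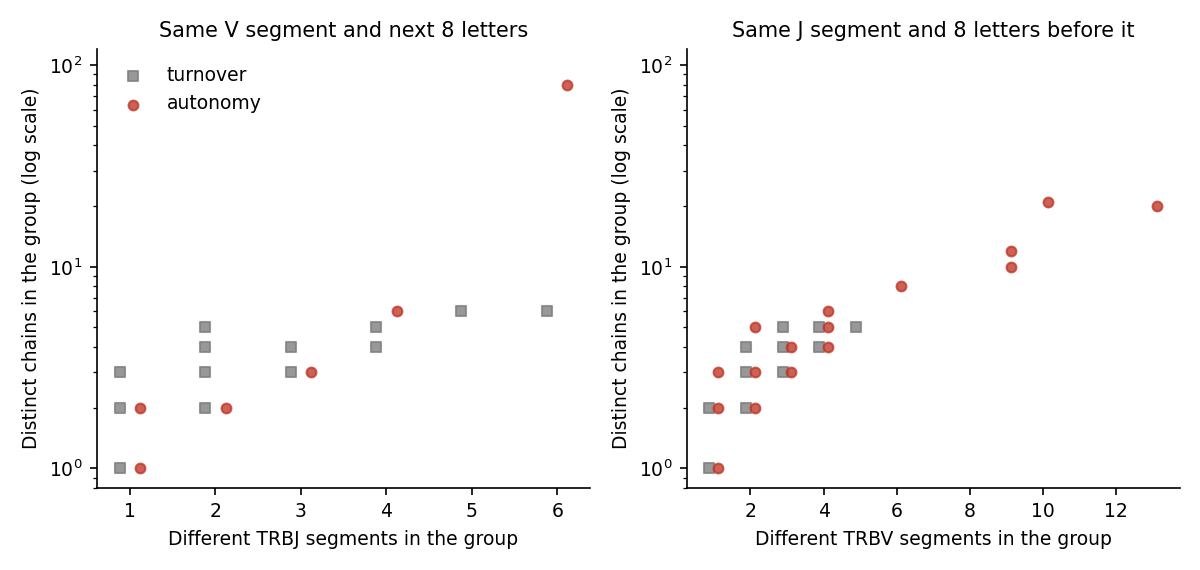
Each point is a group of chains that share a V segment and the next 8 letters (left) or a J segment and the 8 letters before it (right), with the number of different partner segments on the horizontal axis and the number of distinct chains on a logarithmic vertical axis, with grey squares for turnover and red circles for autonomy, set slightly apart. The autonomy library has a V-D group of 80 chains and D-J groups with up to 13 V segments, where turnover reaches 6 chains and 5 V segments. With 6 letters the turnover D-J groups reach 11 V segments.

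The D-J groups were the mirror image of the V-D group, chosen for shared D-J letters, with a varying V. The one with most V segments had CAGGTCCC before TRBJ1-4, in 20 chains of 27 cells with 13 V segments. It held 17 of the 38 TRBD1 chains with TRBJ1-4 in autonomy. Examples from 4 V segments are shown with the shared letters in capitals, and they include a chain with no D call.
TRBV31, TRBD1, TRBJ1-4 (4 cells): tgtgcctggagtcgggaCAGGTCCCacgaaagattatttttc
TRBV5, TRBD1, TRBJ1-4 (2 cells): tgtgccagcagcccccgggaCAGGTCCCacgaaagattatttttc
TRBV12-1, TRBD1, TRBJ1-4 (2 cells): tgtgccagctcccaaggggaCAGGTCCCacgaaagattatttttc
TRBV19, no D, TRBJ1-4 (2 cells): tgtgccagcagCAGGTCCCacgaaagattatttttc
In the group, 17 chains were called TRBD1 and 3 had no D call. In the TRBV19 chain the shared letters followed the V letters directly. The chains with no D call also included a TRBV20 chain with ggga before the shared letters, as in the TRBV31 chain called TRBD1. The D call thus varied among chains with the same D-J letters.

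The same was seen in a smaller group with GGGGCGGG before TRBJ1-4, of 10 chains with 9 V segments in 11 cells. Here 7 chains were called TRBD1 and 3 TRBD2, and these 3 are among the 10 TRBD2 chains with TRBJ1 in autonomy. A chain of each call is shown.
TRBV5, TRBD1, TRBJ1-4 (1 cell): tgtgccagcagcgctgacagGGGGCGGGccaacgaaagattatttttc
TRBV13-2, TRBD2, TRBJ1-4 (1 cell): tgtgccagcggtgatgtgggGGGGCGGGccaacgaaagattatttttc
The TRBD1 chain kept ACAGGG across the start of the shared letters, and the TRBD2 chain had a longer run of G there. Whether these joints came from the same D segment was not tested.

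Of the D-J groups, the one found in most cells had GGGGATGC before TRBJ2-7, in 23 chains of 104 cells with 10 V segments. These include 2 chains that did not enter the grouping above, which counts 21 chains in 85 cells. Of the 23, 21 chains were called TRBD1, 1 TRBD2 and 1 had no D call, and the most frequent chain was in 35 cells. It is shown with 4 V segments because its letters return below in an unproductive contig.
TRBV1, TRBD1, TRBJ2-7 (35 cells): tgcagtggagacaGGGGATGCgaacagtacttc
TRBV29, TRBD1, TRBJ2-7 (5 cells): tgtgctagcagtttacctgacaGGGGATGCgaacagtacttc
TRBV2, TRBD1, TRBJ2-7 (4 cells): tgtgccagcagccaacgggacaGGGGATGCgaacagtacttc
TRBV19, TRBD1, TRBJ2-7 (3 cells): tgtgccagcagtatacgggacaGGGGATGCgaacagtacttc
A further group had ACAGGAGG before TRBJ2-5, in 12 TRBD1 chains of 34 cells with 9 V segments, and the last had GGGGGGCG before TRBJ2-3, in 8 TRBD2 chains of 8 cells with 6 V segments. A single TRBV5 chain took 19 of the 34 cells of the TRBJ2-5 group. No turnover contig with a CDR3 held the letters of any of these 5 D-J groups.

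Cells of the junction groups differed in the transcripts of the sex chromosomes, which tell cells of female from cells of male origin in this library. Xist, the RNA of the inactive X chromosome, was detected in 0 of 3784 turnover cells with a member chain and in 1327 of 3235 autonomy cells, and Y-linked transcripts (Ddx3y, Eif2s3y, Kdm5d or Uty) in 2181 and 729. The autonomy library thus held cells of both sexes, and 24 cells had both kinds of transcript. In the V-D group of TRBV13-3, 116 of 149 cells had Xist and 0 had a Y-linked transcript. In the CAGGTCCC group of TRBJ1-4, 0 of 27 cells had Xist and 12 had a Y-linked transcript. The GGGGATGC group of TRBJ2-7 had 80 of 103 cells with Xist and 2 with both, and the GGGGCGGG group of TRBJ1-4 had 9 of 11 with Xist and 0 with a Y-linked transcript. The GGGGGGCG group of TRBJ2-3 had 6 of 8 and 0. The ACAGGAGG group of TRBJ2-5 was mixed, with Xist in 4 and Y-linked transcripts in 19 of 34 cells and both in 3. In the V-D group and 3 of the 5 D-J groups, the cells in which either kind was detected had the same kind throughout. The exceptions were the 2 cells of the TRBJ2-7 group with both and the cells of the TRBJ2-5 group. How many animals the cells of a group came from was not tested, because the labels do not tie cells to animals.

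Other readouts of the V-D group were close to those of the autonomy library in part. A productive alpha chain contig was found in 69 of its 149 cells (46.3%), against 46.9% of autonomy cells with a member chain and 42.9% in turnover. Dtx1, a ubiquitin ligase gene induced by Notch, stood at 239 CPM in it, at 209 CPM in all autonomy cells with a member chain and at 2.77 CPM in turnover. It was detected in 50.3% of the V-D group cells and 36.8% of these autonomy cells. Mki67, a gene of dividing cells, was detected in 15 of 149 V-D group cells and 161 of 3235 of these autonomy cells, a larger share in the V-D group. In turnover it was detected in 599 of 3784 cells. The median depth was 2790 UMIs per cell in the V-D group, 2471 in autonomy and 2098.5 in turnover.

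The share of chains found in 2 or more cells did not follow the D call. In turnover, 46 of 1957 TRBD1 chains (2.35%, 1.73 to 3.12), 28 of 1257 TRBD2 chains (2.23%, 1.49 to 3.20) and 11 of 779 chains with no D call (1.41%, 0.707 to 2.51) were in 2 or more cells. In autonomy the shares were 35.6% (29.7 to 41.8), 37.7% (32.9 to 42.5) and 40.0% (32.6 to 47.8). Within each library the intervals of the D calls overlapped. The total of cells was less even in autonomy, where the 253 TRBD1 chains were in 1228 cells. The 409 TRBD2 chains were in 1691 cells and the 170 with no D call in 583. In turnover the 1957, 1257 and 779 chains were in 1936, 1260 and 779 cells. The chain in most cells had 186 cells for TRBD1, 192 for TRBD2 and 51 with no D call, all in autonomy, and 5, 8 and 3 cells in turnover. In cells with 1 productive beta chain, a productive alpha chain was found in 40.9%, 42.2% and 43.5% of turnover cells by D call and in 43.7%, 47.5% and 51.6% of autonomy cells.

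Some chains had a CDR3 that did not start with the letters usual for their V segment. They numbered 52 in turnover and 43 in autonomy, in 53 and 264 cells. Of these, 27 turnover and 22 autonomy chains held the usual start 8 letters into the called CDR3, all with TRBV13-1, TRBV13-2 or TRBV24. Since 8 is no multiple of 3, the frame of the called CDR3 in these chains is not that of the usual V start, although the authors' table lists them as productive. Chains with any unusual start made 7.11% of autonomy TRBD1 chains (4.27 to 11.0) and 1.02% of those of turnover. For TRBD2 the shares were 4.89% (3.01 to 7.45) and 1.75%, and with no D call 2.94% (0.962 to 6.73) and 1.28%. The autonomy intervals of the D calls overlapped.

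Distinct unproductive full-length chains with a CDR3 kept the link between D call and J cluster but not the TRBD2 lead of the productive autonomy chains. Whether having a CDR3 selects them for a reading frame was not tested. In turnover, 270 distinct unproductive chains had a CDR3, of which 45.9% were TRBD1 (39.9 to 52.1), 29.3% TRBD2 (23.9 to 35.1) and 24.8% had no D call (19.8 to 30.4). In autonomy, 197 such chains were 39.1% TRBD1 (32.2 to 46.3), 39.1% TRBD2 (32.2 to 46.3) and 21.8% without a call. The TRBJ1 share again followed the D call, with 60.5% of TRBD1 and 5.06% of TRBD2 chains in turnover and 23.4% and 2.60% in autonomy. The TRBD2 share of unproductive chains was higher in autonomy, with overlapping intervals, and it was lower there when each cell was counted, at 25.96% against 29.3%. Contigs with no productive call formed a further set, counted as contigs and not as distinct chains. In autonomy, 452 of 930 were TRBD2 (48.6%, 45.3 to 51.9) and 333 TRBD1 (35.8%), so TRBD2 led in that set. In turnover, 139 of 325 were TRBD1 (42.8%) and 129 TRBD2 (39.7%), with intervals that overlapped.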

How the data were processed

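Per the labels' protocols, single-cell suspensions of thymi were sorted and libraries were made with 5′ reagents and mouse T cell V(D)J enrichment. The submitters' processing notes name Cell Ranger 3.0.2, Seurat 3.1.3.9002 and mm10. The V(D)J reference and the rule for calling a D segment are not given in the sources used here. The deposited tables hold UMI counts per gene and cell, not normalized, and contigs with the authors' segment calls, productive calls, UMI counts and CDR3. All contigs are listed as cells of high confidence.

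Contigs that were TRB, productive and full length were reduced to distinct chains (V, J, nucleotide CDR3) per library, without a doublet caller. The library was the only group, so shares carry exact 95% binomial intervals and no test was run. CPM are UMIs per library total. V and J stretches were learned from turnover chains, extended while at least 50% of at least 10 chains carried the same next letter. The intervals and the stretches were tested on simulated data. Junction groups share 8 letters, and those described in autonomy have at least 6 partner segments. The chains, lists and groupings were chosen with earlier results of these data known. The text names all TRBJ segments with at least 10 chains, the 6 TRBV segments with most chains, the 3 highest and 3 lowest in TRBD2 share among those with at least 40 D-called chains in each library, and TRBV1 and TRBV31. TRBV2, TRBV29 and others outside this rule were named after their values were seen. Printed chains are those in most cells, and in the D-J groups examples were picked after seeing them. Alternatives used other chain definitions, cell weights, UMI minimums, cells with 1 chain, junction groups counted once and chains with the usual CDR3 start, the last 2 added after seeing the data. Python 3.11.15, numpy 2.4.6, pandas 2.3.3, scipy 1.17.1 and matplotlib 3.10.9 were used. Gene positions and segment types come from RefSeq on GRCm38.p6.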

Additional observations from a re-analysis of the deposited data

Results flagged for a closer look

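Unproductive TRB contigs held the D-J letters of the TRBJ2-7 group in 67 of 4226 autonomy cells with 4 V segments, against 0 of 4273 turnover cells. In 63 of these autonomy cells the contig had TRBV15 and TRBD1, with the CDR3 shown here and the shared D-J letters in capitals.
unproductive TRBV15, TRBD1, TRBJ2-7 (63 cells): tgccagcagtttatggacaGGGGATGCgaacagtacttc
In all 63 cells with a CDR3 for such a TRBV15 contig, it ended in these letters.

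An unproductive contig with TRBV15, TRBD1 and TRBJ2-7 was also found in 78 of the 149 cells that carried the TRBV13-3 V-D junction (52.3%, 44.0 to 60.6). It was seen with each J segment of the junction, in 12 of 30 cells with TRBJ2-1, 2 of 8 with TRBJ2-2, 7 of 13 with TRBJ2-3, 26 of 40 with TRBJ2-4, 22 of 37 with TRBJ2-5 and 9 of 21 with TRBJ2-7. It was in 6 of the 3091 other autonomy cells with a member chain (0.194%, 0.0713 to 0.422) and in 0 of 3812 turnover cells. A CDR3 was given for it in 36 of the 149 cells, and 43 had such a contig with no CDR3 (1 cell had both), which cannot be compared letter by letter. Both results were singled out because they lie outside the productive chains and exceed the level in the turnover library. No unproductive contig with a CDR3 held the V-D letters of TRBV13-3.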

How the results depend on the processing

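No paired analysis was possible because each condition had 1 library and no result came from a test. The D call shares, TRBJ1 shares and median lengths moved by less than their counting interval when the nucleotide CDR3 alone was the chain, with at least 5 UMIs, in cells with 1 productive chain, in barcodes of the gene tables, without the chain of both libraries, with partial contigs kept, for chains of 1 cell only and for the usual CDR3 start.

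Counting each cell moved the autonomy values, where large clones weigh most. TRBD1 then made 35.2% and chains without a call 16.5%, and TRBJ1 was in 23.8% of TRBD1 and 0.698% of TRBD2. The median length was 48 nucleotides for TRBD1, 48 for TRBD2 and 39 with no D call, so TRBD1 and TRBD2 no longer differed. TRBJ2-7 took 14.5% of TRBD1 and 17.1% of TRBD2 chains with TRBJ2. Unproductive chains became 32.1% TRBD1, 25.96% TRBD2 and 41.9% without a call, TRBV19 had TRBD2 in 26.4% and TRBV3 in 93.8%. With junction groups counted once, chains without a call made 20.9% of turnover and 25.4% of autonomy, TRBD2 45.1% of autonomy, TRBJ2-7 17.1% of autonomy TRBD1 chains with TRBJ2, and TRBV13-3 had TRBD2 in 60.0%. TRBD2 among D-called TRBJ2 chains was then 55.4% (53.1 to 57.6) and 67.0% (62.3 to 71.4). With 6 junction letters the largest turnover D-J group held 13 chains with 11 V segments, and with 10 letters the largest V-D group of autonomy held 77 chains.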
